A study of Homo sapiens with 6 samples.

Results

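Transcript levels of 4 chaperone genes, CHORDC1, STIP1, TRAP1 and HSPD1, were followed in A549 cells after heat and X-rays; A549 is a cell line long established from a human lung adenocarcinoma. The genes were chosen by symbol: CHORDC1 and STIP1 encode cytosolic partners of HSP90, whereas TRAP1 and HSPD1 encode chaperones of the mitochondrial matrix. Each of the 4 symbols was carried by 1 array feature, among 14884 genes that the platform annotation names. The study had 6 groups of 1 array each. Cells received 3 Gy of X-rays alone at 37 °C (the irradiated array), 1 h of heat at 41.5 °C or at 44 °C, each of these heatings followed at once by 3 Gy, or neither treatment (the untreated control at 37 °C). Per the labels' protocols, all cells first grew for 24 h at 37 °C, and cells heated or irradiated alone were kept for 3 h at 37 °C afterwards. The labels do not give that time for the control or for the combined treatments. Whether the 6 arrays stem from separate cultures is not stated, and the p-values reflect array-to-array spread that may be purely technical.

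HSP90 is an ATP-driven chaperone that completes the folding of kinases, steroid receptors and other client proteins, and helper proteins called co-chaperones steer it through its cycle. CHORDC1, also known as morgana, binds HSP90 through a CS domain and is also known as an inhibitor of ROCK kinases. STIP1, also known as HOP, is an adaptor with tetratricopeptide repeats that holds HSP70 and HSP90 together while a client passes between them. In mitochondria, TRAP1 is the resident HSP90 paralog, and HSPD1 (HSP60) forms the folding chamber that HSPE1 (HSP10) closes. Heat shock factor 1 (HSF1) activates many chaperone genes in heated cells by binding heat shock elements, which are inverted repeats of the unit GAA and its complement TTC.

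Promoter letters are shown first, and their part in the heat responses given below was not tested. The RefSeq promoter table (GRCh38.p14) held 6 windows for these genes, each with 250 bases before an annotated start and 50 after it: 1 for CHORDC1, 2 for STIP1, 1 for TRAP1 and 2 for HSPD1. They were searched on both strands for GAANNTTC and TTCNNGAA, each its own reverse complement, and for the overlapping 3-unit forms GAANNTTCNNGAA and TTCNNGAANNTTC, which are reverse complements of each other. In the following stretches, read 5′ to 3′ on the gene's strand, capitals mark every match before the start, and a stretch without a match is wholly in lower case.
CHORDC1, chr11:90223050-90223279, minus strand: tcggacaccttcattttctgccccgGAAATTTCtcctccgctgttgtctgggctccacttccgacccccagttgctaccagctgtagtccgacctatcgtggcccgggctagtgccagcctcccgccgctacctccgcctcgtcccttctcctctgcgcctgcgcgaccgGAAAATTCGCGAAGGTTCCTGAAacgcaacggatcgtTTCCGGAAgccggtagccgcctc
HSPD1, before its second annotated start, chr2:197500043-197500090, minus strand: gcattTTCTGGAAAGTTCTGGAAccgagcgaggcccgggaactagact
STIP1, before its first annotated start, chr11:64185172-64185271, plus strand: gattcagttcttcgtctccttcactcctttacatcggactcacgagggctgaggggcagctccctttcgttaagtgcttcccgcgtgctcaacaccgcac
TRAP1, chr16:3717525-3717624, minus strand: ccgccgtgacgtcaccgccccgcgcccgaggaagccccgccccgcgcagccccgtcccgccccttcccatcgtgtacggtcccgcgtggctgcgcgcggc

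The CHORDC1 window held 3 matches to each 2-unit form and 3 overlapping 3-unit matches, which began at positions -60, -55 and -50 from the start. The window before the second HSPD1 start held overlapping 3-unit matches from -245 and -240, and the window before its first start held 0 matches of any form. STIP1 had 1 match of 2 units, TTCCAGAA, which began 14 bases after its second annotated start, and TRAP1 had 0. Of all 35116 windows, 13.5% held either 2-unit form and 0.49% either 3-unit form. A match is a stretch of letters and not a measured binding site.

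The additive model used for all tests had a term for each temperature and one for radiation, fitted to the 6 arrays, so that each temperature had 2 arrays and each dose 3. The 2 degrees of freedom left over mix noise with whatever the combined treatment adds beyond its parts. Differences are on the log2 scale with their standard errors (SE), and a gene was called at a Benjamini-Hochberg adjusted p under 0.05 in limma over all 14884 genes. Array medians over all features lay between 4.39 and 4.46, and Pearson correlations between arrays over all features between 0.970 and 0.989. Of the fixed markers, 4 of 5 measured epithelial genes lay above the median gene, with KRT18 at 11.51 on average, and 0 of 6 alveolar, 0 of 3 endothelial and 0 of 1 fibroblast genes did. Both measured leukocyte genes did, CD14 narrowly at 5.41 and CD68, a lysosomal glycoprotein found in many cells, at 8.71. The summed log2 level of these leukocyte genes was 14.91 to 14.92 at 44 °C, against 13.78 to 13.93 at 37 °C, and CD68 rose by 0.68 ± 0.08 (adjusted p = 9.1e-04, and 0.0523 without the irradiated array). CD14 was not called at 44 °C against 37 °C (0.38 ± 0.13, adjusted p = 0.12 in limma). At 41.5 °C the sum was 13.83 with and 13.35 without 3 Gy. The part of these leukocyte genes in the results below was not tested.

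At 44 °C, CHORDC1, STIP1 and HSPD1 were higher than at 37 °C and TRAP1 was not called. That is 3 of 4 genes, beside 6.11% of all genes called in this comparison (3.57% higher and 2.54% lower). At 41.5 °C, 1 of the 4 genes was called against 37 °C, HSPD1, beside 3.29% of all genes (2.18% higher and 1.1% lower). Set against 41.5 °C, all 4 genes were called at 44 °C, CHORDC1, STIP1 and HSPD1 higher and TRAP1 lower, beside 12.1% of all genes (4.9% higher and 7.23% lower). With bulk RNA, more transcript per cell and more cells that hold it cannot be told apart. The 3 temperature comparisons share arrays.

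CHORDC1 had by far the widest range of the 4 genes. Its log2 level was 9.53 and 9.33 in the 44 °C arrays with and without 3 Gy, against 6.50 and 6.36 in the 37 °C arrays with and without 3 Gy. Both 44 °C arrays lay more than 2.8 log2 units above any other array. The rise was 8.01-fold, or 3.00 ± 0.09 (SE, adjusted p = 4.8e-08 in limma, with 2 arrays per temperature), which placed CHORDC1 at rank 8 of 14884 genes. At 41.5 °C the level was 6.06 with and 6.10 without 3 Gy. The difference from 37 °C was -0.35 ± 0.09, with a 95% interval of -0.56 to -0.14. It missed the threshold over all genes (adjusted p = 0.0805), although it passed when only genes above the median level were tested (adjusted p = 0.0481). Against 41.5 °C, the level at 44 °C was 10.2-fold higher (3.35 ± 0.09, adjusted p = 2.4e-08), rank 5 of all genes.

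STIP1 rose with 44 °C heat by a much smaller amount. Its log2 level was 9.03 and 8.93 at 44 °C with and without 3 Gy, against 8.29 and 8.40 at 37 °C. The rise was 1.55-fold, or 0.63 ± 0.09 (adjusted p = 0.00162). This call ended when the control array (adjusted p = 0.0511) or the array of 3 Gy at 37 °C (adjusted p = 0.0756) was left out. At 41.5 °C the level was 8.49 with and 8.65 without 3 Gy, between those at 37 °C and 44 °C, and the difference from 37 °C (0.22 ± 0.09, interval 0.03 to 0.42) did not pass (adjusted p = 0.210). The rise at 44 °C over 41.5 °C, 0.41 ± 0.09 (adjusted p = 0.0126), was not called without either combined array, with adjusted p = 0.0997 without that at 41.5 °C and 0.125 without that at 44 °C.

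HSPD1 was the gene called at both temperatures. Its log2 level was 9.69 and 9.60 at 44 °C with and without 3 Gy, against 8.90 and 9.00 at 37 °C. The rise was 1.62-fold, or 0.69 ± 0.08 (adjusted p = 5.6e-04). It stayed called under all 14 alternatives tried, with adjusted p up to 0.0427. At 41.5 °C the level was 9.27 with and 9.42 without 3 Gy, and the rise over 37 °C was 1.32-fold, or 0.40 ± 0.08 (adjusted p = 0.0259). Without the control, the irradiated or the 41.5 °C array this call was lost (adjusted p = 0.208, 0.339 and 0.113). The rise at 44 °C over 41.5 °C was 0.30 ± 0.08 (adjusted p = 0.0404). That call ended when the control (adjusted p = 0.0907), the irradiated array (0.0903) or the combined array at 41.5 °C (0.254) or 44 °C (0.344) was left out, and after median centring of the arrays (0.112). HSPD1 has processed pseudogene copies of similar sequence in the human genome, and whether they share signal with its feature was not tested.

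TRAP1 had lower values at 44 °C than elsewhere. Its log2 level was 9.14 and 9.09 at 44 °C with and without 3 Gy, against 9.31 and 9.41 at 37 °C. At 41.5 °C it was 9.41 with and 9.36 without 3 Gy, and the 37 °C and 41.5 °C arrays lay within 0.10 of each other. The difference between 44 °C and 37 °C, -0.25 ± 0.07 (interval -0.41 to -0.08), did not pass (adjusted p = 0.0875), though it did after a further quantile normalization (-0.29, adjusted p = 0.0433). Between 44 °C and 41.5 °C TRAP1 fell by 0.28 ± 0.07 (adjusted p = 0.0387), and this call was lost without any 1 of the 6 arrays (adjusted p from 0.0702 to 0.231). At 41.5 °C against 37 °C the difference was 0.03 ± 0.07, with an interval of -0.14 to 0.19, and it turned negative after a further quantile normalization and without the irradiated or the combined 41.5 °C array.

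**Figure D1:**
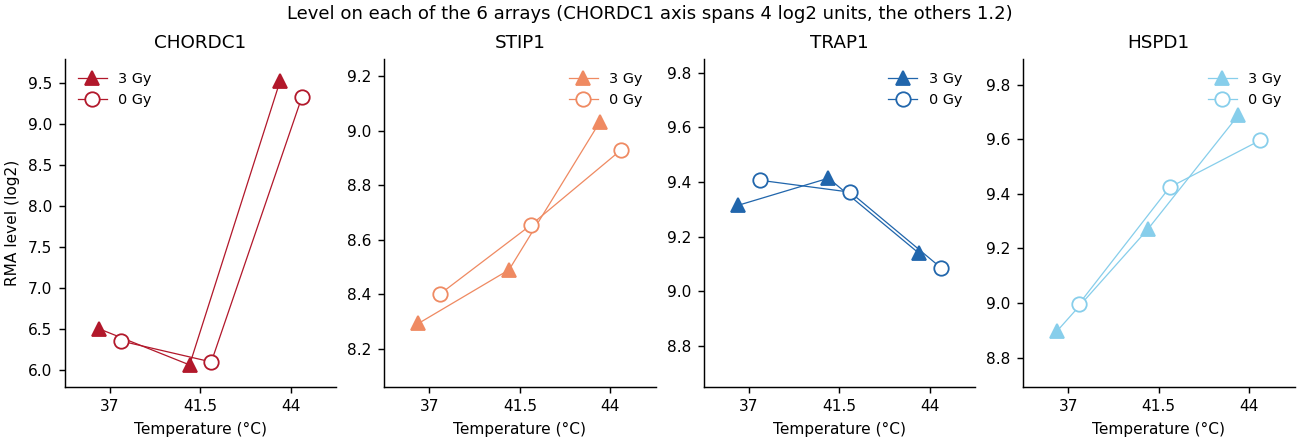
RMA level (log2, vertical) of each gene on each of the 6 arrays by temperature (horizontal, evenly spaced categories), with filled triangles for 3 Gy and open circles for 0 Gy; each point is 1 array and lines join arrays of equal dose. CHORDC1 stands at 9.53 and 9.33 at 44 °C and under 6.6 elsewhere, STIP1 and HSPD1 climb in steps, and TRAP1 is lowest at 44 °C.

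Ranked by level, neighbouring arrays were often closer than the spread of the model allowed to separate. The moderated SD of a single array was 0.09 for CHORDC1 and STIP1, 0.08 for HSPD1 and 0.07 for TRAP1. For CHORDC1, the combined and the heat-only array at 41.5 °C differed by 0.04, which is under that SD, and the control followed 0.26 above them. For STIP1 the order from low to high was 3 Gy at 37 °C, control, 41.5 °C with and without 3 Gy, then 44 °C without and with 3 Gy, and HSPD1 had the same order. For TRAP1 the steps among the 4 arrays at 37 °C and 41.5 °C were 0.05, 0.04 and 0.01, all under its SD.

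**Figure D2:**
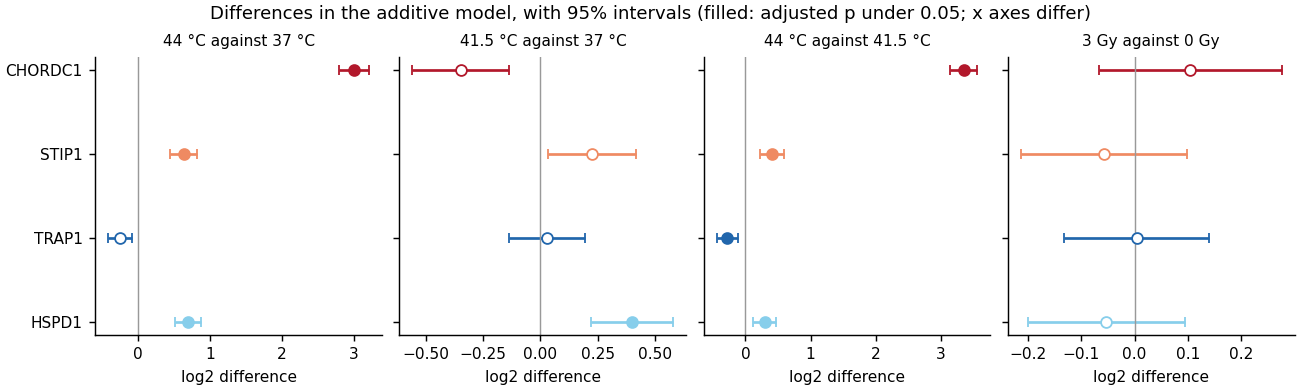
Log2 difference of each gene (horizontal, x axes differ between panels) in the 4 comparisons of the additive model over 6 arrays; bars are 95% intervals and filled points have an adjusted p under 0.05. CHORDC1 lies at 3.00 at 44 °C against 37 °C, STIP1 and HSPD1 at 0.63 and 0.69, and no gene is filled in the radiation panel.

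The cytosolic and the mitochondrial genes were set against each other as changes from the control array, since levels of different features are not comparable. In the 44 °C arrays, CHORDC1 and STIP1 differed from it on average by 1.90 with and 1.75 without 3 Gy, and TRAP1 and HSPD1 by 0.21 with and 0.14 without 3 Gy. The cytosolic mean was therefore 1.69 and 1.61 log2 units above the mitochondrial one. At 41.5 °C the sign turned: the cytosolic mean lay 0.24 with and 0.19 without 3 Gy below the mitochondrial one. On the unheated array with 3 Gy it lay 0.12 above. The cytosolic genes had opposite signs at 41.5 °C, CHORDC1 at -0.29 with and -0.26 without 3 Gy and STIP1 at 0.09 and 0.25. In the same arrays HSPD1 was at 0.27 and 0.43 and TRAP1 at 0.01 and -0.04. All these changes share the 1 control array. These values carry no test, since there is 1 array in each group.

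The genes of each compartment also differed among themselves. Within the cytosolic genes, CHORDC1 differed from the control by 3.18 and 2.98 in the 44 °C arrays with and without 3 Gy and STIP1 by 0.63 and 0.53. Within the mitochondrial genes, HSPD1 differed by 0.69 and 0.60 and TRAP1 by -0.27 and -0.32 in the same arrays. STIP1 and HSPD1 thus had like values at 44 °C across the compartments, and most of the cytosolic excess at 44 °C came from CHORDC1. Across the 6 arrays, Pearson r was 0.97 between STIP1 and HSPD1 and -0.97 between CHORDC1 and TRAP1. These correlations describe 6 arrays that share the same 3 temperatures.

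**Figure D3:**
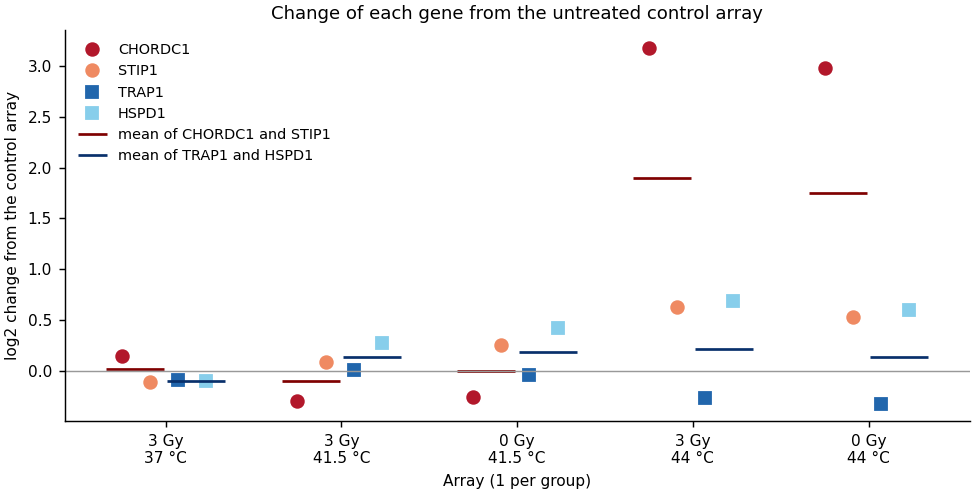
Log2 change of each gene from the untreated control array (vertical) on the other 5 arrays (horizontal, 1 array per group); circles are the cytosolic and squares the mitochondrial genes, and horizontal lines their means. CHORDC1 stands at 3.18 and 2.98 at 44 °C, whereas STIP1 and HSPD1 share a sign on every array and TRAP1 is below 0 at 44 °C.

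X-rays left no called difference in any of the 4 genes. Over the 3 array pairs, 3 Gy against 0 Gy gave 0.10 ± 0.08 for CHORDC1 (interval -0.07 to 0.28), -0.06 ± 0.07 for STIP1 (-0.21 to 0.10), -0.05 ± 0.07 for HSPD1 (-0.20 to 0.09) and 0.00 ± 0.06 for TRAP1 (-0.13 to 0.14), with adjusted p from 0.997 to 0.999 in limma. The intervals leave room for changes of up to 0.28 on the log2 scale. Of all genes, 0% were called, also with robust moderation (0 genes). Median centring gave 1 call, and some other alternatives, given below, gave calls too. An unadjusted p under 0.05 was held by 733 genes, and 0 of these 4 genes were among them. At 44 °C the array with 3 Gy was above that without it for all 4 genes, by 0.20 for CHORDC1, 0.10 for STIP1, 0.09 for HSPD1 and 0.05 for TRAP1. Departures from additivity at 44 °C were 0.05 for CHORDC1, 0.21 for STIP1, 0.19 for HSPD1 and 0.14 for TRAP1, and at 41.5 °C -0.18, -0.06, -0.05 and 0.14 in the same order. They rest on 4 single arrays each and have no replicate check, and that of CHORDC1 at 44 °C was -0.02 after a further quantile normalization. Each departure, and each pair behind the 3 Gy differences, sets arrays labelled 3 h after treatment beside arrays with no labelled time. An effect of that time cannot be told apart from these values.

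The other HSP90 co-chaperones were read as a list, which was chosen with earlier results of these data known. Of 28 listed genes 18 were measured, and at 44 °C against 37 °C 4 of them rose and 0 fell (22.2%, beside 6.11% of all genes), with a median of 0.14 against -0.04 for all genes. CACYBP, a CS-domain protein that binds the ubiquitin ligase SIAH1, stood at 7.68 and 7.79 at 44 °C with and without 3 Gy, against 6.52 and 6.56 at 37 °C. It rose by 1.19 ± 0.09 (adjusted p = 3.0e-05) and kept its call under all 14 alternatives. ST13, or HIP, which stabilises the ADP state of HSP70, rose by 1.28 ± 0.18 (adjusted p = 0.00208). Its feature was dim, at 5.32 and 5.90 at 44 °C with and without 3 Gy, against 4.40 and 4.27 at 37 °C, and the call ended without the control array (adjusted p = 0.0894). PTGES3, or p23, which binds the ATP state of HSP90, rose by 0.51 ± 0.08 (adjusted p = 0.00369), a call lost without the control array (adjusted p = 0.124) or without the intensity trend of the moderation (0.0881). PPID, a cyclophilin that binds HSP90, rose by 0.37 ± 0.08 (adjusted p = 0.0284), a call kept under 7 of 14 alternatives and ended by leaving out any 37 °C or 44 °C array (adjusted p up to 0.258).

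At 41.5 °C against 37 °C, PPID was the 1 called gene of the 18 (5.56%, beside 3.29% of all genes), with a median of 0.08 for the list against -0.0039 for all genes. PPID rose by 0.54 ± 0.08 (adjusted p = 0.00947), which missed the threshold once the control (adjusted p = 0.148) or the irradiated array (0.215) was left out, without the intensity trend (0.131) and among all features of the table (0.134). Between 44 °C and 41.5 °C, 2 of 18 rose (11.1%, beside 12.1% of all genes), CACYBP by 0.88 ± 0.09 and ST13 by 0.99 ± 0.18, and the ST13 call ended without the heat-only 44 °C array (adjusted p = 0.0726) and among all features (0.0563). The kinase adaptor CDC37 was at 0.11 (adjusted p = 0.482) and FKBP5, a steroid receptor co-chaperone, at -0.0085 (adjusted p = 0.982) at 44 °C against 37 °C. The cytosolic HSP90 genes themselves, HSP90AA1 and HSP90AB1, and their paralog HSP90B1 of the endoplasmic reticulum were not among the named features.

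**Figure D4:**
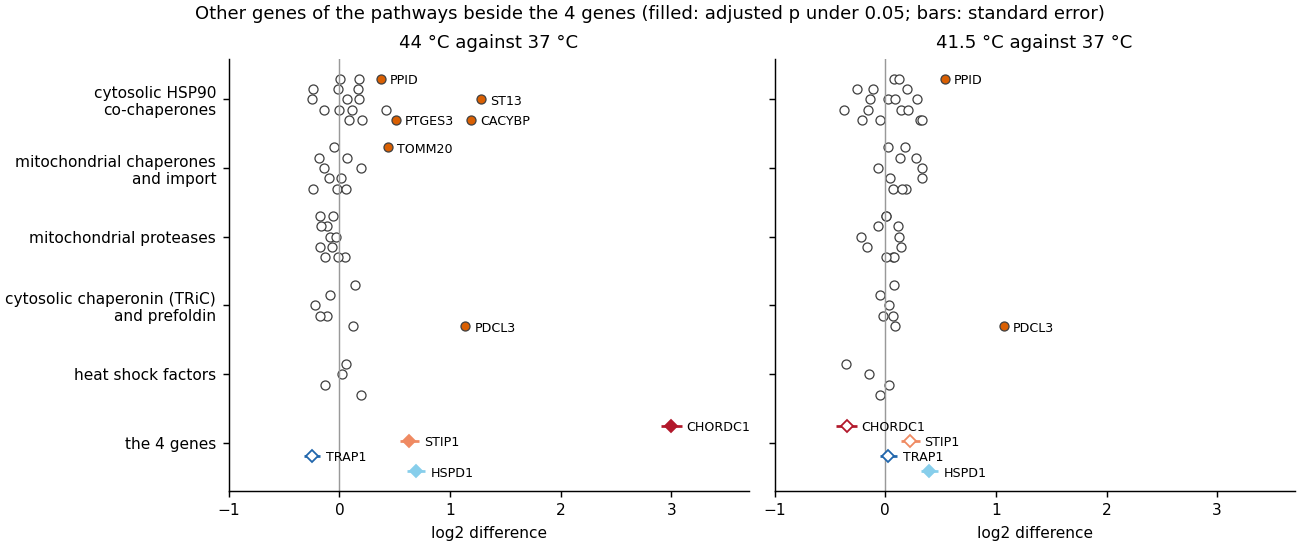
Log2 difference (horizontal) at 44 °C against 37 °C (left) and 41.5 °C against 37 °C (right) for the measured genes of 5 lists and the 4 genes, 1 point per gene; filled points have an adjusted p under 0.05 and bars on the 4 genes are standard errors. CHORDC1 at 3.00 lies beyond every list gene at 44 °C, where CACYBP, ST13 and PDCL3 are the list genes past 1.

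For the mitochondrial chaperone and import list, the share called at 44 °C against 37 °C was near that of all genes. Of 11 measured chaperone and import genes, 1 rose and 0 fell against 37 °C (9.09%, beside 6.11% of all genes), with a median of -0.02. TOMM20, an import receptor of the outer membrane, rose by 0.44 ± 0.10 (adjusted p = 0.0242), a call kept under 8 of 14 alternatives and ended by leaving out any 37 °C or 44 °C array (adjusted p up to 0.325). HSPA9, the mitochondrial HSP70 known as mortalin, was at 11.47 and 11.50 at 44 °C with and without 3 Gy, against 11.46 and 11.38 at 37 °C (0.07 ± 0.07, adjusted p = 0.668). At 41.5 °C against 37 °C 0 of the 11 were called in limma, beside 3.29% of all genes. An unadjusted p under 0.05 was held by 3 of the 11, beside 17.1% of all genes. Positive values were held by 10 (median 0.15, against -0.0039 for all genes). Between 44 °C and 41.5 °C, 0 rose and 2 fell (18.2%, beside 12.1% of all genes). Negative values were held there by 10 of the 11 (median -0.10, against -0.02 for all genes). TIMM9, a small import chaperone of the intermembrane space, fell by 0.46 ± 0.10 (adjusted p = 0.0164), and BCS1L, an AAA protein that assembles respiratory complex III, fell by 0.42 ± 0.09 (adjusted p = 0.0148). The call of TIMM9 was lost without either array at 41.5 °C or 44 °C that had no radiation (adjusted p = 0.127 each), and that of BCS1L without these arrays or the combined 41.5 °C array (up to adjusted p = 0.0833). Both calls also ended without the intensity trend (adjusted p = 0.0762 for TIMM9 and 0.0768 for BCS1L) and among all features (0.0809 and 0.0700).

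Of 11 measured mitochondrial proteases 0 were called in any temperature comparison in limma, with 0, 0 and 2 genes at an unadjusted p under 0.05 at 44 °C and 41.5 °C against 37 °C and at 44 °C against 41.5 °C. Of all genes, 6.11%, 3.29% and 12.1% were called in these 3 comparisons, and 20.5%, 17.1% and 25.4% had such an unadjusted p. The proteases' values at 44 °C against 37 °C lay between -0.18 for CLPX and 0.05 for PHB2, with 10 of 11 below 0. The median of all genes was also below 0 there, at -0.04. Of the cytosolic chaperonin and prefoldin list 7 genes were measured, none of them a TRiC subunit. PDCL3, a phosducin-like cofactor of that chaperonin, rose at both temperatures, by 1.14 ± 0.10 at 44 °C (adjusted p = 6.3e-05) and 1.07 ± 0.10 at 41.5 °C (adjusted p = 5.1e-04). Its level was 7.16 and 7.15 at 44 °C and 7.07 and 7.09 at 41.5 °C, with and without 3 Gy, against 5.94 and 6.08 at 37 °C, and the 41.5 °C call ended on leaving out the irradiated array (adjusted p = 0.0630), without the intensity trend (0.0505) and among all features (0.0565). Of the heat shock factors and their binding protein 0 of 4 were called in limma, with 1 at an unadjusted p under 0.05 at 44 °C against 37 °C and 1 at 44 °C against 41.5 °C, a share near that of all genes. HSF1 itself was at -0.13 ± 0.10 at 44 °C against 37 °C (adjusted p = 0.543).

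Of the HSP70 and HSP110 genes, 3 members were set beside CHORDC1, the third added after its values were seen. HSPA1A, an inducible HSP70 whose signal is not separable from that of HSPA1B, rose by 2.48 ± 0.08 at 44 °C and 1.80 ± 0.08 at 41.5 °C, and HSPH1, an HSP110 nucleotide exchange factor, by 1.59 ± 0.07 and 1.21 ± 0.07. HSPA6, a strictly stress-inducible HSP70, rose by 3.21 ± 0.13 at 44 °C (adjusted p = 3.0e-07), more than CHORDC1, and at 41.5 °C stood at 0.18 ± 0.13 (adjusted p = 0.546). Like CHORDC1, it thus had a large rise at 44 °C and no called one at 41.5 °C. No test was made between genes.

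Genes with a promoter match of the 3-unit form offered a wider view of the same letters. Of 63 measured genes with such a match, 7 rose at 44 °C against 37 °C (11.1%), beside 3.57% of the 10749 measured genes that had a window, and 1 fell, IL18BP by 0.82 ± 0.11 (adjusted p = 0.00153, and 0.0733 without the control). At 44 °C against 37 °C, 57 of 1499 genes with a 2-unit but no 3-unit match rose (3.8%), and 320 of 9187 with no match (3.48%). Between 44 °C and 41.5 °C 11 of the 63 rose (17.5%, beside 4.93% of genes with a window) and 7 fell (11.1%, beside 7.73%). At 44 °C against 37 °C the list's median was -0.02, against -0.04 for genes with a window. The 7 that rose at 44 °C over 37 °C were HSPA6 (3.21), CHORDC1 (3.00), FBXW10 (2.68), FBXW10B (1.83), TMEM95 (1.39), ABHD3 (0.86) and HSPD1 (0.69). FBXW10 and FBXW10B are near-identical copies that may share signal. At 41.5 °C 3 of the 63 rose (4.76%, beside 2.33% of genes with a window), namely FBXW10 (0.94), the noncoding RNA GAS5 (0.47) and HSPD1, and CCDC68 fell by 0.56. The 44 °C call of TMEM95 ended without the control (adjusted p = 0.0555), and the 41.5 °C call of FBXW10 without the control (0.0673) or the irradiated array (0.131), without the intensity trend (0.0572) and among all features (0.0928). The 41.5 °C calls of GAS5 and CCDC68 ended under 5 and 6 of the 14 alternatives (adjusted p up to 0.249 and 0.467). This list was drawn after the values of the 4 genes were known, and it holds CHORDC1 and HSPD1 themselves. The counts are therefore only a description.

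Over the 6 arrays, the genes most like each of the 4 were taken by Pearson r among brighter genes that varied at least 0.5 times as much. For CHORDC1, with 44 such candidates, these were TSPYL2 (r = 0.997), HIBCH, FOS, EGR1 and PNLDC1 (each r = 0.994). TSPYL2, a nucleosome assembly protein of the TSPY family, had values of 2.41 at 44 °C and -0.28 at 41.5 °C against 37 °C. For STIP1 they were UBQLN1, a shuttle of ubiquitinated proteins (r = 0.995), RGPD6, DCLRE1B, TRIB1 and DIPK2A. For HSPD1 they were SPRY4, an inhibitor of growth factor signalling (r = 0.995), JUNB, AZIN1, SERP1 and WDR13, of which JUNB rose by 0.79 at 44 °C (adjusted p = 9.4e-04, and 0.0557 without the irradiated array). For TRAP1 they were AARS1, the cytosolic alanyl-tRNA synthetase (r = 0.996), IL18BP, MIR23B, MCRS1 and SNRNP40. With 6 arrays at 3 temperatures many genes reach such values, and the likeness is only a description.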

How the data were processed

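Total RNA of 6 A549 samples (300 ng each) was hybridised to Affymetrix arrays. The deposited values are log2 expression levels, which the authors normalized and summarised by RMA in Affymetrix Expression Console 1.1, per the submitters' processing notes. For the probes' genome build, the sources used here name none.

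Of 53617 features, 16098 (30%) carry 1 gene symbol in the platform annotation, 0 carry several, and 37519 are unnamed here and entered only the alternative fit of all features. Symbols were updated through gene identifiers to RefSeq (GRCh38.p14). For 779 genes with several features the brightest was used, which left 14884 genes. Differences come from an additive model in limma 3.58.1 (R 4.3.3) with an intensity trend, with prior degrees of freedom of 8.06, a median residual SD of 0.113 and a median SE of 0.138 between temperatures. The number of arrays limits this precision. The model was tested on simulated data.

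The 4 genes and the lists were chosen with earlier results of these data known. List genes named are all called ones, by the rule for lists with 5 or fewer calls in a comparison. Uncalled genes named, CDC37, FKBP5, HSPA9, HSF1, CLPX and PHB2, were added after their values were seen. Of the listed genes 32 had no named feature, including the HSP90 paralogs (0 of 3 measured) and HSPE1. Alternatives changed the moderation, scaling, feature choice, filter on dim genes and model terms, and left out each array in turn.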

Additional observations from a re-analysis of the deposited data

Results flagged for a closer look

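The difference between arrays with and without 3 Gy had opposite signs at 2 temperatures for each of the 4 genes. For CHORDC1 it was 0.20 at 44 °C and -0.04 at 41.5 °C, a gap of 0.24 on the log2 scale. For STIP1 it was 0.10 at 44 °C and -0.16 at 41.5 °C, a gap of 0.26, and for HSPD1 0.09 and -0.15, a gap of 0.25 (0.245 before rounding). For TRAP1 it was 0.05 at 44 °C and -0.09 at 37 °C, a gap of 0.14. Each value compares single arrays, so these differences were not tested, and with 1 array in each group an opposite sign is a weak criterion.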

How the results depend on the processing

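CHORDC1 at 44 °C kept its call against 37 °C (2.93 to 3.07) and against 41.5 °C (3.24 to 3.46) under all 14 alternatives, and HSPD1 at 44 °C against 37 °C did too (0.59 to 0.80). Without the intensity trend in the moderation, calls were lost for STIP1 at 44 °C against 37 °C (0.63, adjusted p = 0.0513) and against 41.5 °C (0.41), for HSPD1 at 41.5 °C against 37 °C (0.40) and 44 °C against 41.5 °C (0.30), and for TRAP1 at 44 °C against 41.5 °C (-0.28). Tested among all features of the table, the last 4 of these were lost as well (0.41, 0.40, 0.30 and -0.28). There both the moderation and the adjustment run over all features, and the SE of HSPD1 was 0.0877 instead of 0.0809. Median centring ended the HSPD1 call at 44 °C against 41.5 °C (0.24). A further quantile normalization brought TRAP1 at 44 °C against 37 °C past the threshold (-0.29) and turned its sign at 41.5 °C (-0.0078) and for radiation (-0.0014), both near 0. Among brighter genes only, CHORDC1 at 41.5 °C (-0.35) passed. The cause of these changes was not tested.

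Leaving out 1 array at a time gave 0.51 to 0.75 for STIP1 at 44 °C against 37 °C and 0.29 to 0.53 against 41.5 °C, 0.32 to 0.47 for HSPD1 at 41.5 °C and 0.19 to 0.40 at 44 °C against 41.5 °C. For TRAP1 it gave -0.31 to -0.24 at 44 °C against 41.5 °C, -0.044 to 0.0998 at 41.5 °C against 37 °C and -0.0205 to 0.0517 for radiation. Among differences that were not called, it gave 0.14 to 0.30 for STIP1 at 41.5 °C against 37 °C, and for radiation 0.06 to 0.17 for CHORDC1, -0.14 to -0.0040 for STIP1 and -0.13 to -0.0031 for HSPD1. A temperature or dose left with fewer arrays was then assumed to vary like the others, with 1 residual degree of freedom.

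Counts of called genes at 44 °C against 37 °C were 910, 405 without the trend, 1916 among all features and 263 to 1212 with 1 array left out. At 41.5 °C against 37 °C they were 489, 9 without the trend, 33 among all features and 19 to 800 with 1 array left out. Between 44 °C and 41.5 °C they were 1805, 791 without the trend and 1024 to 1299 with 1 array left out. For radiation they were 0, 1 each after median centring, with the mean of all features of a gene and among brighter genes, and 0 to 85 with 1 array left out. The extremes were 263 without the control, 19 without the irradiated array, 800 without the 44 °C array, 1024 without the combined 41.5 °C array and 85 without either 44 °C array. The split of higher and lower genes was 532 and 378 at 44 °C against 37 °C, with 485 and 596 after quantile normalization and 467 and 538 after median centring. At 41.5 °C it was 325 and 164, with 273 and 229 after quantile normalization, and between 44 °C and 41.5 °C 729 and 1076, with 580 and 1432 after median centring. Calls per list stayed within 1.5 times the reported count in 248 of 280 recomputations, mostly 0 both times. Co-chaperone calls at 41.5 °C moved most, in 8 of 14. All 39 values without a test moved by less than the median residual SD of 0.113, but many could not move. The 4 genes have 1 feature each, so the mean of all features repeated every value. Median centring cancels in the cytosolic minus mitochondrial differences. The limit of 0.113 was also wider than several departures from additivity. That of CHORDC1 at 44 °C changed sign within it, from 0.0514 to -0.0203 after quantile normalization. No paired analysis was possible, with 1 array per group and no labelled replicate numbers. The model already sets each heated array beside its equal-dose array at 37 °C.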

Other observations

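The nearest measured genes on the chromosome, 2 on each side of each gene in RefSeq order, were read after the values of the 4 genes were known. Of these 16 neighbours 2 were called in any temperature comparison (12.5%, beside 14.8% of all genes) and 14 were not. FERMT3, which encodes the integrin activator kindlin-3 known from blood cells and lies next to STIP1, stood at 6.36 and 6.35 at 44 °C with and without 3 Gy, against 4.77 and 4.79 at 37 °C. It rose by 1.57 ± 0.13 (adjusted p = 4.2e-05 in limma), and at 41.5 °C its difference from 37 °C was 0.08 ± 0.13 (adjusted p = 0.840). NAALAD2, a peptidase gene next to CHORDC1, was a dim feature at 3.64 and 3.91 at 44 °C with and without 3 Gy, against 2.97 and 2.74 at 37 °C, and rose by 0.92 ± 0.19 (adjusted p = 0.0169). This call ended on leaving out the control (adjusted p = 0.240), the array of 3 Gy at 37 °C (0.0869) or the heat-only 44 °C array (0.181), and among all features (0.0708). The neighbours of TRAP1, SLX4, DNASE1, CREBBP and ADCY9, and those of HSPD1, ANKRD44, COQ10B, RFTN2 and PLCL1, were not called.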
